A study of Homo sapiens with 9 samples.

Results

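The genes described here are the TNF ligands and their receptors, taken as the autosomal protein-coding genes whose symbols begin with TNFSF or TNFRSF, together with TNF, LTA, LTB, LTBR, FAS, FASLG and CD40. The rule gave 39 of 20136 protein-coding genes, 15 ligands and 24 receptors. Of the receptors, 6 carry a death domain, 4 are decoy or soluble receptors and 14 are others. The rule used gene names alone and no measured value.

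ChIP-seq mapped 4 histone marks in BEAS-2B, an immortalised line of human bronchial epithelial cells. The WT cells had been through CRISPR-Cas9 targeting of mdig (RIOX2, a JmjC domain protein) without losing the protein, and the KO cells had been through the same targeting and lost it. Both came from colonies selected with blasticidin after transfection of a Cas9 vector with its guide RNA, and both were kept in medium with blasticidin. Each mark had 1 library per genotype, and 1 input library of WT cells was not analysed here because no islands are given for it.

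Ligands of the TNF superfamily act as trimers, on the cell surface or after shedding, and cluster their receptors on the target cell. Receptors with a death domain recruit adaptors that can start apoptosis, most other receptors bind TRAF proteins and reach NF-κB and stress kinases, and decoy receptors bind ligand without a full signal. Many of the ligands are made mainly by activated lymphocytes and myeloid cells, while airway epithelium carries several of the receptors. H3K4me3 marks the starts of active or poised genes, H3K27me3 marks Polycomb-repressed genes, H3K9me3 marks heterochromatin and repeats, and H3R8me2a is the asymmetric dimethyl form of arginine 8 in histone H3.

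The values are islands, stretches of the genome in which the peak caller SICER found more tags than its background. An island has a position and no height, so a value here is the number of bases of a gene that lie under islands. For each gene this was counted over the gene body with 5 kb upstream, and the start was taken as the 4 kb around the start of the gene record, 2 kb on each side. A gene was called a gain where its covered length in KO was 2 or more times that in WT and larger by 1 kb or more, and a loss in the opposite case. An exon is said to be covered where an island meets it by 1 base or more. With 1 library per mark and genotype no test is possible and no error can be given. A gain or loss is a difference of size between 2 libraries and has no replicate check.

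The 8 sets of islands covered from 52.8 Mb to 342 Mb of the genome. In all 4 marks the KO library covered more than the WT library, least for H3K4me3 with 88.8 Mb in WT against 102 Mb in KO, and most for H3K9me3 with 52.8 Mb and 195 Mb. RIOX2 itself had 3 kb of H3K4me3 in WT against 3.8 kb in KO, and islands without sequence cannot show the edit. It was called a gain of H3R8me2a, with none in WT against 6.6 kb in KO, where 20.0% of all genes gained that mark. As a check of the cell type, 5 of 8 bronchial epithelial marker genes had H3K4me3 at their start in both libraries, against 2 of 8 leukocyte markers, CD14 and CD68. KRT5, KRT17 and KRT19, keratins of the airway epithelium, had none, and 3 of 5 mesenchymal markers had H3K4me3 at the start in both. Over all genes H3K4me3 lay at 64.7% of starts in WT and 64.4% in KO. The 5 of 8 epithelial and 3 of 5 mesenchymal markers are near this share, so the count does not by itself mark the cells as epithelial.

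The promoters of 2 members are shown first because the marks over them differed between the genotypes. TNFRSF4 (OX40, a costimulatory receptor of T cells) had H3K4me3 at the start in WT alone. TNF, the founding cytokine of the family, had H3K9me3 over its start in KO alone. The sequences are the 300 bases before the start of the main transcript, from GRCh37, read 5′ to 3′ along the strand of the gene. Capitals mark TGANTCA (the AP-1 element) in TNFRSF4 and TATAAA (the classical core promoter element) in TNF. The windows are chr1:1149534-1149833 on the minus strand for TNFRSF4 and chr6:31543042-31543341 on the plus strand for TNF.
TNFRSF4: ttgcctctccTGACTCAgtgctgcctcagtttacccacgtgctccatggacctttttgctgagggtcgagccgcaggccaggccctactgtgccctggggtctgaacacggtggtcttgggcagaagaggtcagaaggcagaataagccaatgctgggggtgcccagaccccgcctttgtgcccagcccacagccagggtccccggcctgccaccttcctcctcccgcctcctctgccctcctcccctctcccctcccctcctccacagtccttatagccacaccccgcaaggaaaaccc
TNF: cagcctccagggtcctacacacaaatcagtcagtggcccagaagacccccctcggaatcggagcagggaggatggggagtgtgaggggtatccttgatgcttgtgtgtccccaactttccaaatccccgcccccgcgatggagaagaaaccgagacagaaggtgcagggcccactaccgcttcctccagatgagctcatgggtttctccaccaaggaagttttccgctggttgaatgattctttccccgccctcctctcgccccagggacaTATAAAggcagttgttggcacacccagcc

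Each motif was searched on both strands of such 300-base windows. TATAAA was present in 10 of 39 members (25.6%) and in 11.1% of all 20093 genes with a main transcript. Of these members 6 were ligands, among them TNF, LTA, TNFSF10 and TNFSF15. TGANTCA was present in 4 members (10.3%) and in 5.76% of all genes, and the NF-κB consensus in 11 members (28.2%) and in 13.1% of all genes. A match is a string of letters and was not tested as a binding site.

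The promoters of ligands and receptors also differed in how many CG dinucleotides they held in the 1001 bases centred on the main start. Ligands had a median of 25 and receptors 59.5, against 66 over all genes. The 25 members with an H3K4me3 island within 2 kb of the main start in either library had a median of 60, and the 14 members without one had 22. Over all genes the medians were 78 and 17. Members with few CG and an island were TNFSF10 with 9, LTB with 11, TNFRSF9 and TNFSF13B with 12 each, and TNFRSF1A with 22. Members with many CG and no island were TNFRSF25 with 68, TNFRSF8 with 59 and CD40 with 46. TNFRSF8 and CD40 instead had H3K27me3 at the start.

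**Figure D1:**
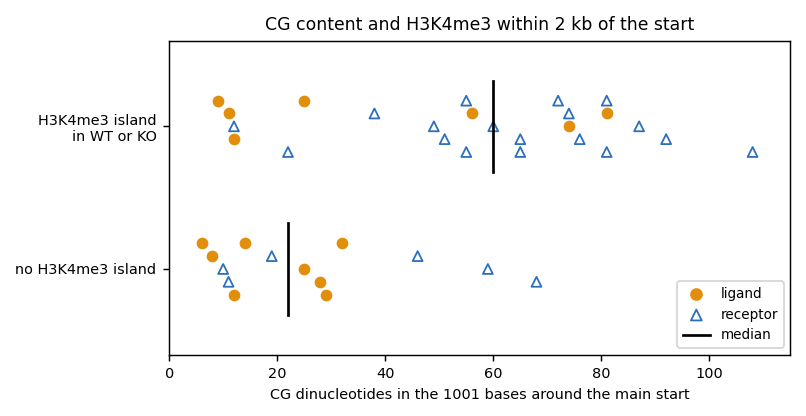
CG dinucleotides in the 1001 bases around the main start of each of the 39 genes (x axis), split by whether an H3K4me3 island lay within 2 kb in WT or KO. Filled circles are ligands, open triangles are receptors and the vertical bars are the medians, 60 with an island and 22 without, and the rows overlap between 9 and 68 CG.

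In WT the members fell into 4 kinds of start. H3K4me3 without H3K27me3 was found at 18 starts (46.2%, all genes 56.2%), both marks at 3 (7.69%, all genes 8.54%), H3K27me3 alone at 3 (7.69%, all genes 11.7%) and neither at 15 (38.5%, all genes 23.5%). Ligands and receptors were unevenly spread over these. Neither mark was present at 10 of 15 ligand starts and at 5 of 24 receptor starts. The ligands TNFSF11 and TNFSF13B and the receptor TNFRSF19 are among these, though each had H3K4me3 in WT within 2 kb of another coding start. The 3 starts with both marks were TNFRSF18 (GITR), TNFRSF14 (HVEM) and TNFRSF13C, and the 3 with H3K27me3 alone were TNFRSF8 (CD30), TNFRSF13B (TACI) and CD40. These starts are those of the gene records, and all 6 are receptors of the group without a death domain, most of them best known from lymphocytes. The ligand TNFSF11 had H3K27me3 in WT at a coding start inside its gene record, beside H3K4me3, and brings the starts with H3K27me3 in WT to 7 when all coding starts are counted.

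Over 6 members there was no island of any mark in either genotype. They were the ligands FASLG, TNFSF18, TNFSF4, TNFSF15 and TNFSF8, and TNFRSF17 (BCMA, a receptor of plasma cells). They made up 15.4% of the members, against 9.30% of all genes, and the windows of the members were shorter, with a median of 19.5 kb against 32.2 kb over all genes. A further 9 members had islands and no call in any mark. Of the remaining 24 members, 8 were called in at least 2 marks, namely TNFRSF4, TNFRSF25, TNFRSF1B, LTA, TNF, TNFRSF21, TNFRSF13B and TNFRSF13C. The matching shares of all genes were not computed, so these counts are not read as a trait of the family. Over all genes 27.6% gained H3K9me3 and 20.0% gained H3R8me2a.

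**Figure D2:**
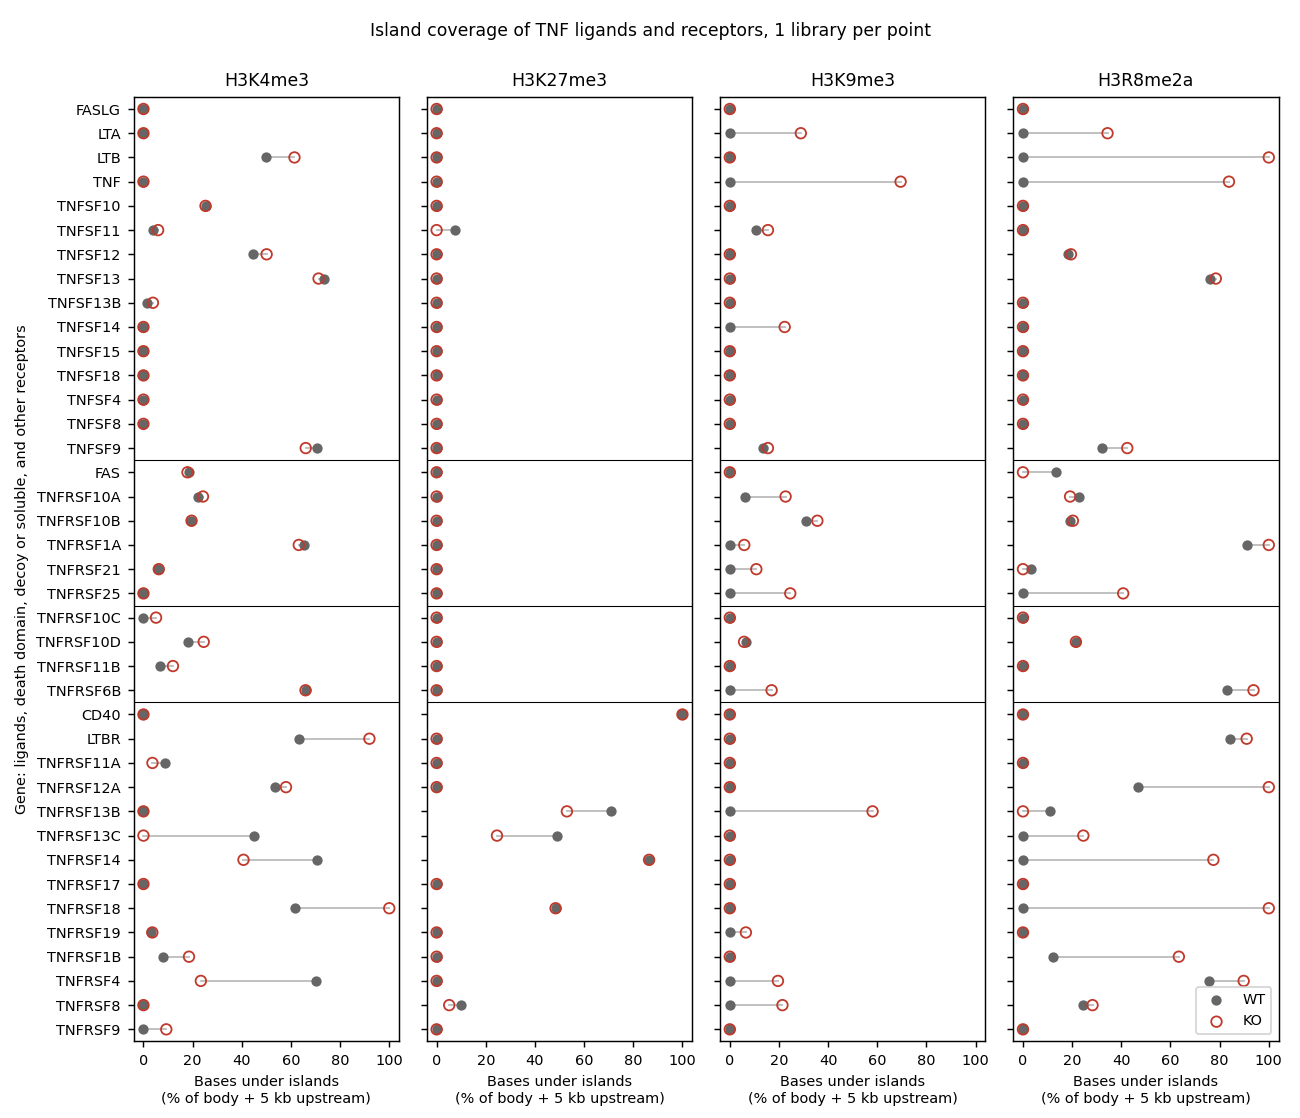
Share of the gene body and 5 kb upstream that lay under islands (x axis, percent) for each of the 39 genes (y axis, grouped by role) in 4 marks. Filled gray points are the WT library and open red points the KO library, 1 library each. No open H3K27me3 point lies to the right of its WT point, while 15 H3K9me3 points do.

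For H3K4me3, 4 members gained (10.3%, where 4.10% of all genes did) and 3 lost (7.69%, where 2.04% did). At these background shares the numbers of members are small and rest on single libraries. An H3K4me3 island lay within 2 kb of the start at 21 members in WT (53.8%, all genes 64.7%) and at 21 in KO (53.8%, all genes 64.4%), and 19 had it in both. Over the 1142 kb of joined windows, H3K4me3 covered 141 kb in WT against 152 kb in KO, a ratio of 1.08, against 1.13 over all genes.

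TNFRSF13C (the BAFF receptor of B cells, chr22:42318036-42322810, minus strand) lost all of its H3K4me3. In WT an island of 4.4 kb (chr22:42321401-42325800) covered the start and all 3 exons, and in KO no H3K4me3 island was left over the gene or its 5 kb upstream. The H3K27me3 island that lay over the same start in WT, 4.8 kb long, was replaced in KO by one of 2.4 kb that began 0.61 kb inside the gene and covered exons 2 and 3. H3R8me2a, absent in WT, covered 2.4 kb in KO, from 2.59 kb to 0.191 kb upstream of the start.

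TNFRSF4 (chr1:1146706-1149533) and TNFRSF18 (chr1:1138888-1141972) are neighbours on the minus strand of chromosome 1, TNFRSF18 downstream of TNFRSF4, and both encode costimulatory receptors of T cells. Over TNFRSF4, H3K4me3 covered 5.5 kb in WT against 1.83 kb in KO, a loss. Over TNFRSF18 it covered 4.97 kb in WT against 8.09 kb in KO, which fell short of 2 times and was not called. One WT island of 10.2 kb covered the start and all 7 exons of TNFRSF4 and stopped 0.029 kb upstream of the TNFRSF18 start. The KO island of 9 kb was displaced toward TNFRSF18, so that it covered the start and all 5 exons of TNFRSF18 but no more than exons 6 and 7 of TNFRSF4. A second KO island of 26.8 kb began 3.67 kb upstream of the TNFRSF4 start and held the starts of SDF4 and B3GALT6, neighbours of TNFRSF4. H3K27me3 over TNFRSF18 was the same in both genotypes, 3.91 kb.

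TNFRSF11A (RANK, the receptor of TNFSF11 on osteoclast precursors) had 6.2 kb of H3K4me3 in WT against 2.6 kb in KO. The start itself stayed covered, with 2.72 kb and 2.32 kb of the 4 kb around it, so most of the difference lay inside the gene. TNFRSF14 (HVEM, the receptor of TNFSF14) had 10.4 kb in WT against 6 kb in KO, below the factor of 2, while its start changed from 3.68 kb to 3.48 kb.

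In the 4 gains of H3K4me3 the KO library had from 1 kb to 4.95 kb more than WT. Over the gene body alone TNFRSF1B and TNFRSF10C were not called, and TNFRSF18 was. TNFRSF10C was also not called with both libraries scaled to the same total length. TNFRSF1B (TNFR2, the TNF receptor without a death domain) had 3.8 kb in WT against 8.75 kb in KO, and the KO island reached 6.65 kb upstream of the start where the WT island reached 0.447 kb. TNFRSF9 (4-1BB, a costimulatory receptor) had none in WT against 3 kb in KO, over the start of the main transcript and its first 3 exons. That start lies 2.33 kb inside the gene record. TNFRSF10C, a decoy receptor for TRAIL, had none in WT against 1 kb over its start in KO, exactly at the minimum difference. TNFSF13B (BAFF, the B cell survival factor) had 0.8 kb in WT against 2.4 kb in KO at the start of its main transcript, 18.5 kb inside the gene record.

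Among members without an H3K4me3 call, several receptors known from epithelial cells had H3K4me3 at the start in both genotypes. TNFRSF1A (TNFR1, the death domain receptor of TNF) had 12 kb in WT against 11.6 kb in KO. FAS had 5.6 kb and 5.4 kb in an island that also holds the start of ACTA2. The TRAIL receptor TNFRSF10B had 10.3 kb and 10.5 kb, and TNFRSF10A had 8.8 kb and 9.6 kb. TNFRSF21 (DR6) had 4.8 kb and 5.2 kb, TNFRSF12A (the TWEAK receptor) 4.78 kb and 5.18 kb, and LTBR (the lymphotoxin β receptor) 13.6 kb and 19.8 kb. The TNFRSF12A islands also hold the starts of CLDN6, HCFC1R1 and THOC6. Much of the LTBR length came from a separate island over the start of its neighbour SCNN1A, 7.8 kb long in WT and 11.2 kb in KO. The island over the LTBR main start, 9.12 kb inside the gene record, was 5.8 kb long in WT and 8.6 kb in KO. The decoy receptors TNFRSF10D, TNFRSF11B (osteoprotegerin) and TNFRSF6B (DcR3) had 6 kb and 8.2 kb, 2.2 kb and 4 kb, and 4.64 kb in both. The TRAIL receptors lie side by side on chromosome 8 and resemble each other in sequence, so reads could be shared among them, which was not tested.

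Of the ligands, 5 had H3K4me3 at the start of the gene record in both genotypes. TNFSF10 (TRAIL, which binds the death receptors TNFRSF10A and TNFRSF10B) had 5.8 kb in both. TNFSF12 (TWEAK) had 6.41 kb and 7.21 kb, TNFSF13 (APRIL) 6.13 kb and 5.93 kb, TNFSF9 (the ligand of 4-1BB) 7 kb and 6.54 kb, and LTB (lymphotoxin β) 3.5 kb and 4.3 kb. TNFSF12 and TNFSF13 are neighbours whose windows share an island that also reaches the start of SENP3. TNFSF11 (RANKL) had 2 kb and 3 kb at its main start, 11.4 kb inside the gene record. The ligands TNF, LTA and TNFSF14 (LIGHT) had no H3K4me3 in either genotype, nor did the receptors TNFRSF25, TNFRSF8, TNFRSF13B and CD40. TNFRSF19 had 3.6 kb and 4 kb, all of it inside the gene and more than 2 kb from the start of the gene record.

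For H3K27me3, 0 members gained (6.49% of all genes did) and 2 lost (5.13%, where 3.29% did). An island of this mark in either genotype was found over 7 members, 4 of them with fewer bases in KO, 3 with equal length and 0 with more. Of the 6236 genes with such an island, 3703 had more bases in KO and 1679 had fewer. Over the joined windows the mark covered 84.0 kb in WT against 65.1 kb in KO, a ratio of 0.776, against 1.28 over all genes. It lay at 6 starts in WT (15.4%, all genes 20.3%) and at 5 in KO (12.8%, all genes 21.4%).

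The losses were TNFRSF13C, described above, and TNFSF11. The TNFRSF13C loss was not called over the gene body alone. TNFRSF8 was called a loss over the gene body alone and with both libraries scaled to the same total length. TNFSF11, the ligand that drives osteoclast formation, had an island of 3.8 kb over its main start in WT and none in KO. Among starts of gene records, the one that changed presence was that of TNFRSF13B (TACI, a B cell receptor for BAFF and APRIL). There an island of 10 kb over the start and exon 1 was found in WT alone, while 2 others inside the gene were found in both genotypes, and the gene as a whole had 33.5 kb in WT against 25.1 kb in KO. TNFRSF8 had 8.6 kb in WT against 4.4 kb in KO, and what was absent in KO was an island of 4 kb over exons 9 and 10 rather than the one at the start. CD40, the receptor through which T cells activate B cells, was covered from end to end in both genotypes, inside a domain of 255 kb in WT against 261 kb in KO that also holds the start of CDH22.

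For H3K9me3, 12 members gained (30.8%, where 27.6% of all genes did) and 0 lost (0.874% of all genes did). The share of members with a gain was thus near that of all genes. After both libraries were scaled to 1 total length, the counts were 8 gains and 4 losses, where 19.4% of all genes gained and 8.17% lost. The joined windows held 28.1 kb in WT against 117 kb in KO, a ratio of 4.14, against 3.52 over all genes. At starts the mark was found in 1 member in WT (2.56%, all genes 2.86%) and in 3 in KO (7.69%, all genes 11.1%).

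The gains were in 9 receptors and 3 ligands. Death domain receptors held 4 of them, in TNFRSF25, TNFRSF21, TNFRSF10A and TNFRSF1A, out of 6 such receptors, where 27.6% of all genes gained. After scaling, TNFRSF10A and TNFRSF1A were not called, 2 of the 6 were left as gains, and TNFRSF10B was a loss. With that scaling 19.4% of all genes gained and 8.17% lost. Of the 12 genes, 11 had no H3K9me3 in WT. The bases in KO ran from 1.08 kb in TNFRSF1A through a median of 4.3 kb to 27.5 kb in TNFRSF13B. In 10 of the 12 the nearest H3K9me3 island lay more than 2 kb from any start of a coding transcript, with a median distance of 3.92 kb over the 12 and a highest of 14.7 kb. Of the gains 2, or 16.7%, had the mark within 2 kb of the start in KO, against 30.9% of all genes with a gain.

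Those 2 were LTA (chr6:31539831-31542101, lymphotoxin α) and TNF (chr6:31543342-31546113), neighbouring genes on the plus strand of chromosome 6. A single KO island of 5.4 kb, chr6:31540001-31545400, covered all 4 exons of both genes, and WT had none there. Covered bases were 2.1 kb for LTA and 5.4 kb for TNF. The TNF promoter printed above lay wholly inside this island. Since 1 island underlies both, the pair counts as a single event.

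The longest gain was in TNFRSF13B (chr17:16833130-16875432, minus strand), with none in WT against 27.5 kb in KO, 58.1% of its window. Islands of 19.6 kb and 30.2 kb ran from 14.0 kb inside the gene to beyond its end and covered exons 2 to 5. Of the 27.5 kb, 23.5 kb lay on bases that carried H3K27me3 in WT, and no other gained member had such overlap. The next longest was TNFRSF8, with none in WT and an island of 18.4 kb in KO over exon 2 and the introns beside it.

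In the death domain receptors the gained islands lay away from the starts. TNFRSF21, which acts in neurons and T cells, had none in WT against 9 kb in KO, an island that met no exon and began 12.0 kb inside the gene. TNFRSF10A had 2.4 kb in WT against 9 kb in KO, over exons 5 to 9 and an intron. TNFRSF25 (DR3, the receptor of TNFSF15) had none and 2.56 kb, over exons 6 to 10. TNFRSF1A had none and 1.08 kb, all of it upstream of the gene. TNFRSF10B was not called, with 16.8 kb in WT against 19.2 kb in KO, since its intronic H3K9me3 was there in WT already.

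Of the other gains, TNFRSF19 (TROY, a receptor of epithelial and neural progenitors) had none in WT against 7.24 kb in KO, spread over 4 islands. TNFSF14 had none and 3.2 kb, over its last exon. TNFRSF4 had none and 1.53 kb and TNFRSF6B none and 1.2 kb, in both cases upstream of the gene. TNFSF11 had the mark at the start of its gene record in both genotypes, with 5.4 kb in WT against 7.8 kb in KO, and TNFSF9 had 1.34 kb and 1.54 kb at its end.

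For H3R8me2a, 9 members gained (23.1%, where 20.0% of all genes did) and 3 lost (7.69%, where 8.04% did). Both shares were close to those of all genes. Islands lay at 13 starts in WT (33.3%, all genes 27.5%) and at 18 in KO (46.2%, all genes 35.2%). The joined windows held 126 kb in WT against 191 kb in KO, a ratio of 1.52, against 1.59 over all genes.

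H3R8me2a was found in KO alone at 7 of the 39 starts, where 2640 of all 20136 genes had it in KO alone. The 7 were TNFRSF18, TNFRSF14, TNFRSF25, LTA, TNF, LTB and TNFRSF13C. LTA, TNF and LTB lay under 1 KO island of 16.8 kb, chr6:31539601-31556400, which also holds the start of LST1, and had none in WT. Since 1 island underlies these genes, they count as a single event. LTB (chr6:31548302-31550299, minus strand), which encodes the membrane partner of lymphotoxin α, kept its H3K4me3 beside it. The 3 members with both H3K4me3 and H3K27me3 at the start of the gene record in WT gained H3R8me2a, and over all genes of that kind 25.2% did. TNFSF11, which had both marks in WT at its main start farther inside the gene, had no H3R8me2a in either genotype. TNFRSF18 went from none to 8.09 kb and TNFRSF14 from none to 11.4 kb, where the H3K27me3 within each window had equal length in both genotypes.

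The longest gain of H3R8me2a was in TNFRSF1B, from 5.75 kb to 29.95 kb, where KO islands ran from upstream of the gene to exon 6. TNFRSF12A had 4.18 kb in WT against 8.94 kb in KO and TNFRSF25 none and 4.24 kb. The TNFRSF12A gain was not called after scaling nor over the gene body alone, and its islands in both genotypes also held the starts of CLDN6, HCFC1R1 and THOC6. The 3 losses were FAS, with 4 kb over its start in WT and none in KO, TNFRSF21, with 2.6 kb over its start and none, and TNFRSF13B, with 5.27 kb at its far end and none. The mark was also present without a call over 11 members. Among these, TNFRSF1A had 16.8 kb and 18.4 kb, LTBR 18.1 kb and 19.6 kb, TNFRSF10B 10.3 kb and 10.9 kb, and TNFRSF10A 9 kb and 7.6 kb. In WT the LTBR window held an island of 12 kb over the SCNN1A start, apart from the 10.2 kb island over the LTBR main start. In KO a single island of 23.2 kb held both starts. FAS and TNFRSF21 thus had H3K4me3 at the start in both genotypes and H3R8me2a there in WT alone.

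**Figure D3:**
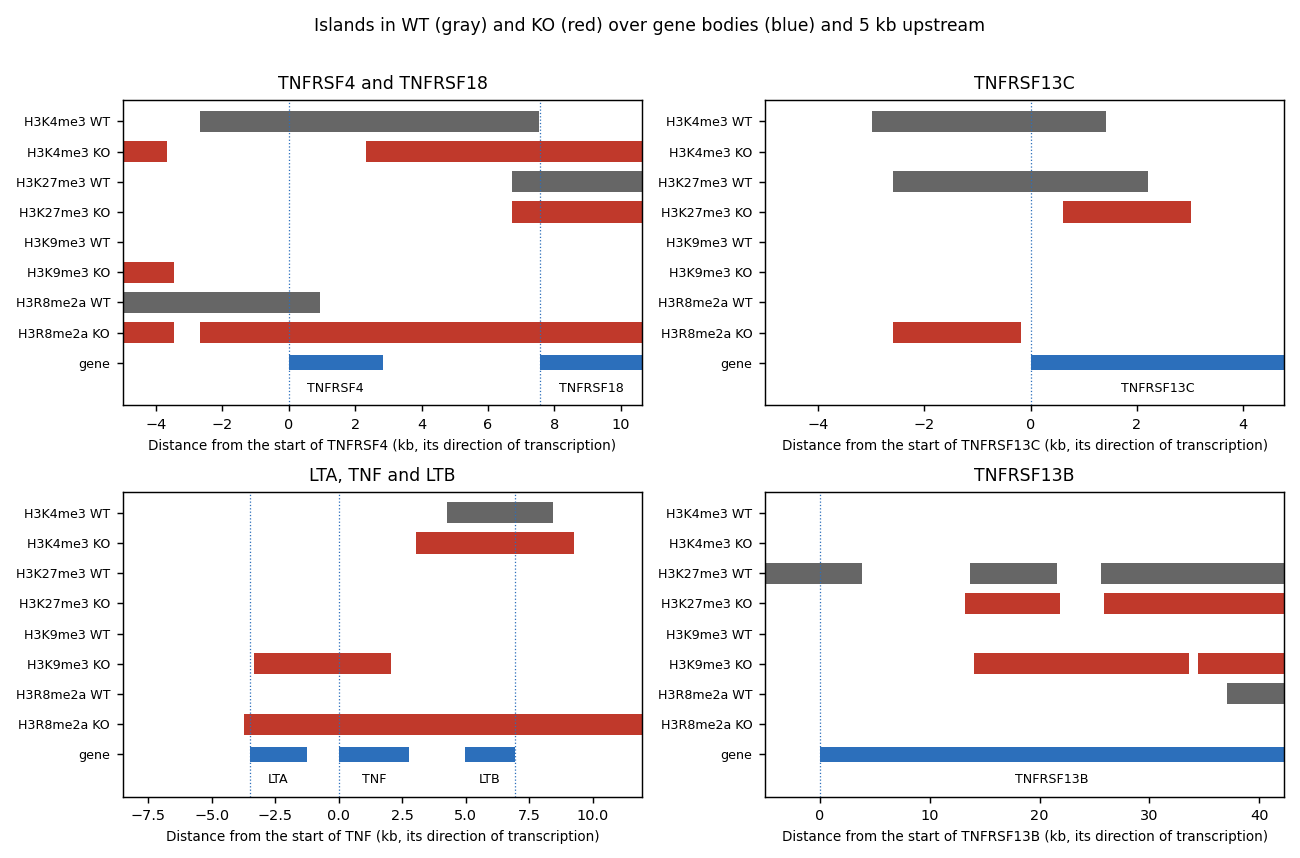
Islands of the 4 marks over 4 sets of genes, by distance in kb from the start of the named gene along its direction of transcription (x axis). Gray bars are WT islands, red bars KO islands and blue bars gene bodies, dotted lines mark starts, and islands are drawn up to the edge of the gene body or 5 kb upstream. The H3K4me3 bar over TNFRSF13C is found in WT alone, and the H3K9me3 bars over TNF, LTA and TNFRSF13B in KO alone.

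**Figure D4:**
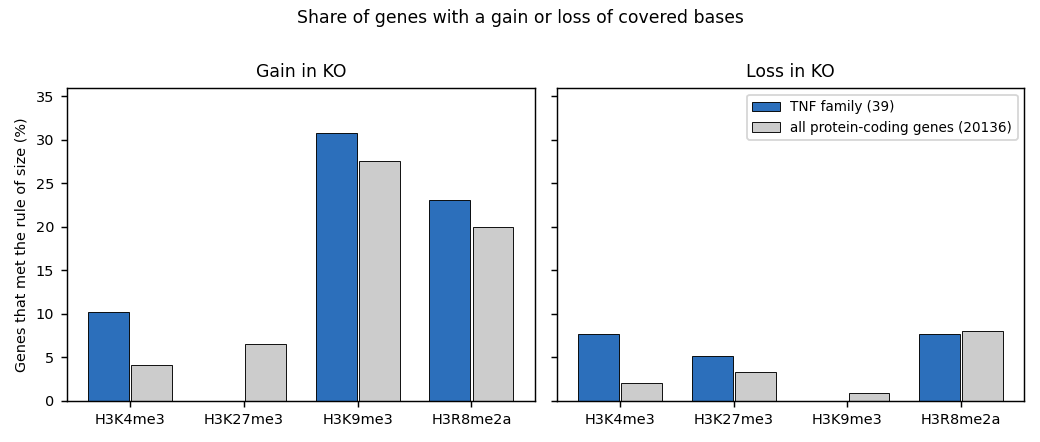
Share of genes (y axis, percent) with a gain (left) or a loss (right) of covered bases in KO for each mark, for the 39 TNF ligands and receptors (blue) and all 20136 protein-coding genes (gray). The H3K9me3 bars are 30.8% and 27.6% for gains, and the H3K27me3 gain bar of the 39 genes is at 0.

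Ligands and their own receptors can be set side by side. TNF had H3K9me3 and H3R8me2a in KO and no H3K4me3, while its receptors TNFRSF1A and TNFRSF1B had H3K4me3 at the start in both genotypes. TNFSF10 was equal in H3K4me3 in both genotypes and had neither H3K9me3 nor H3K27me3. Its receptor TNFRSF10A gained H3K9me3 inside the gene, but not after scaling. Its receptors TNFRSF10B and TNFRSF10D were not called for H3K9me3, and both were losses after scaling. TNFRSF10C had no H3K9me3 in either genotype. FASLG had no island at all, and FAS lost H3R8me2a alone. TNFSF4 and TNFSF18 had no island, and the marks over their receptors TNFRSF4 and TNFRSF18 differed as given above. For TNFSF13B and its receptors, the ligand gained H3K4me3, TNFRSF13C lost it, TNFRSF13B gained H3K9me3 and TNFRSF17 had no island.

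Genes that act below the receptors were counted from a list of 45 (adaptors and ubiquitin enzymes, death machinery, kinases, NF-κB factors and their inhibitors, and the protease that sheds TNF). At the start of the gene record 7 of 9 kinases had H3K4me3 in both genotypes, and all 9 did when all coding starts were counted. Over the whole list, H3K4me3 lay at the start of the gene record of 42 of the 45 in both genotypes (93.3%). Of all 20136 genes 12718 had it in both. None gained H3K4me3 (4.10% of all genes did) and 1 lost it (2.22%, where 2.04% did), IKBKB (IKKβ, the kinase that releases NF-κB), with 12.4 kb in WT against 4 kb in KO and its start covered in both. H3K27me3 was gained by 1 (2.22%, where 6.49% of all genes did), FADD, the adaptor of the death receptors, with none in WT against 3.4 kb in KO beside 5.2 kb and 6.2 kb of H3K4me3.

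H3K9me3 was gained by 8 of the 45 (17.8%, where 27.6% of all genes did) and lost by 1 (2.22%, where 0.874% did). CASP8, the initiator caspase, had 4.6 kb in WT against 11 kb in KO. TAB2, an adaptor of the kinase TAK1, had 3.2 kb and 14.2 kb. SHARPIN, of the linear ubiquitin ligase, had none in WT against 7.23 kb in KO. RBCK1, of the same ligase, had none and 3.8 kb. That is not among the 4 largest differences, and RBCK1 is named for its H3R8me2a. H3R8me2a was gained by 13 (28.9%, where 20.0% of all genes did) and lost by 5 (11.1%, where 8.04% did). TRAF1, a receptor adaptor, had 5.4 kb and 13.4 kb, RBCK1 13.6 kb and 27.6 kb, and IKBKG (NEMO) 2.2 kb and 10.4 kb. TAB2 had 5 kb of H3R8me2a in WT and none in KO.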

How the data were processed

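ChIP-seq of H3K4me3, H3K27me3, H3K9me3 and H3R8me2a was done in WT and mdig KO BEAS-2B cells, with 1 library per mark and genotype. Per the study's methods the authors aligned reads to hg19 with BWA, extended them in silico and down-sampled the tags to the smallest sample. The submitters' processing notes name SICER 1.1, and its settings, the use of the input and the version of BWA are not given in the sources used here. As deposited, the values are positions of islands on a grid of 200 bp, called per library, with no count, height or p-value, so the depth of a library is unknown here and no interval is given. Down-sampling, the calling and mapping to similar genes can change island lengths.

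Islands were placed on protein-coding genes of GENCODE 44 mapped to GRCh37, 1 record per symbol, with Python 3.11.15 and numpy 2.4.6. An overlap of 1 base counted. A second count with bedtools 2.31.1 gave equal values in 312 of 312 comparisons, and the code was tested on simulated islands. A gain or loss needed a factor of 2 and 1 kb. The main transcript was the canonical one, or the principal one where none is tagged. Promoter sequence came from GRCh37, and windows of 300 bases that meet an annotated exon were not printed. The promoter sequence of TNFRSF13C is not reported here. Figures were drawn with matplotlib 3.10.9. Groups came from the sample labels.

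All 39 members were named. From the other lists, genes with an H3K4me3 call or a changed H3K4me3 start were named, with the 4 largest differences of each other mark among called genes. RIOX2 was named as the target. The members and lists were chosen with earlier results of these data known. As alternatives, the counts were repeated with a factor of 1.5, without the upstream part, with equal total lengths, with islands of at least 1 kb, with islands merged within 1 kb and, for starts, with 1 kb on each side or with the starts of all coding transcripts.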

Additional observations from a re-analysis of the deposited data

How the results depend on the processing

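Of 64 values computed for 16 counts of members under the alternatives, 61 were within 1.5 times the value reported. A similar count can still hold other members. With a factor of 1.5 in place of 2, 7 members gained H3K4me3 where 4 had, the added ones being TNFRSF18, TNFRSF11B and TNFSF11. Over the gene body alone, 1 member lost H3K9me3 where 0 had (TNFRSF10D). There the H3K4me3 gains of TNFRSF1B and TNFRSF10C were not called, and TNFRSF18 was called a gain. The H3K27me3 loss of TNFRSF13C was not called there, and TNFRSF8 was called a loss. The H3K9me3 gains of TNFRSF4, TNFRSF1A and TNFRSF6B were not called there, and TNFSF11 was called a gain. With the libraries of a mark scaled to the same total length, 4 members lost H3K9me3 (TNFRSF10B, TNFRSF10D, TNFSF11 and TNFSF9) and 8 gained it where 12 had, while 8.17% of all genes lost it and 19.4% gained it. TNFRSF4, TNFRSF10A, TNFRSF1A and TNFRSF6B were the gains not called after scaling, and LTA, TNF, TNFRSF13B and TNFRSF8 were called in both. For H3R8me2a, the TNFRSF12A gain was not called after scaling, and the TNFRSF12A, TNFRSF25 and TNFRSF13C gains were not called over the gene body alone. TNFRSF4 was called a gain of H3R8me2a over the gene body alone, while with its upstream part it had 5.93 kb in WT against 7.03 kb in KO. No height or depth comes with the islands, so longer coverage cannot be told apart from more permissive calling. The colonies behind each genotype and the genotype itself cannot be told apart either, since each genotype has 1 library per mark.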

Other observations

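Members of the family outside the naming rule, a list of 8 genes that includes CD27, EDAR, EDA and RELT, also varied. Of the 8, 3 gained H3K9me3 (27.6% of all genes did) and 1 lost it (0.874% did). H3K27me3 was gained by 1 (6.49% of all genes did) and H3R8me2a by 1 (20.0% did). H3K4me3 was gained by 1 (4.10% of all genes did) and lost by 2 (2.04% did). EDAR, the ectodysplasin receptor of skin appendages, had H3K27me3 over 87.2 kb in WT against 90.8 kb in KO, and H3K9me3 over 7 kb in WT against 51.4 kb in KO. RELT, a receptor of lymphoid tissue, had 6.4 kb of H3K4me3 in WT against 19.6 kb in KO. Its H3R8me2a covered 9.8 kb and 26.1 kb. EDA, the X-linked ligand of EDAR, had 1.2 kb of H3K4me3 at its start in WT but not in KO, a loss. It gained H3K27me3, with 8 kb in WT against 23.8 kb in KO, and H3K9me3, with none in WT against 1.8 kb in KO. CD27, a costimulatory receptor, had 3.48 kb and 1.68 kb of H3K4me3, none of it at the start.

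Other cytokine families gave shares of H3K9me3 gains close to the 30.8% of the TNF ligands and receptors, and all of these were near the 27.6% of all genes. Among 85 interleukins and their receptors, 27 gained H3K9me3 (31.8%) and 2 lost it. Among 67 chemokines and their receptors, 20 gained it (29.9%) and 0 lost it. The mark was found at 13 chemokine family starts in KO (19.4%, all genes 11.1%) and at 0 in WT (all genes 2.86%). H3K4me3 lay at the start in WT of 42.4% of the interleukin genes and 16.4% of the chemokine genes, against 53.8% of the TNF ligands and receptors. All 3 shares were below the 64.7% of all genes.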
